A study of Rattus norvegicus with 325 samples.

Results

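The young diaphragm was compared with the young soleus in male Sprague Dawley rats. Libraries were taken by their labels: 12 of diaphragm and 12 of soleus, all from rats of 6 months, 24 of the 325 libraries of the series. The Sprague Dawley rat is an outbred laboratory strain, and the labels of both groups give no treatment and no engineered allele. Total RNA depleted of ribosomal RNA was sequenced from whole muscle kept in RNAlater, and the tissues of one age were collected on one morning and early afternoon. The paper equates the sample number of a muscle with its number of animals, so libraries of a muscle were taken as different rats. No label ties a library to its rat, so whether both muscles came from the same rats is not known. The main fit took the libraries as unpaired. Deviations from the group means correlated between same-numbered libraries (median 0.20, against -0.027 for other numbers), so shared rats remain possible. The p-values measure the spread between these libraries, which may be partly technical. For comparison, 12 tibialis anterior and 10 gastrocnemius libraries of the same age, and 11 diaphragm and 12 soleus libraries of rats of 9 months, were used.

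The diaphragm is the sheet of muscle that drives breathing and works throughout life in a rhythm. The soleus is a small postural muscle of the calf that holds the ankle against gravity. A muscle fibre is named by its myosin heavy chain, the motor protein of the sarcomere: type 1 fibres are slow and carry Myh7, while type 2A, 2X and 2B fibres are progressively faster and carry Myh2, Myh1 and Myh4. Slow and fast fibres also differ in their troponins, light chains, calcium pumps and fuel use. Muscles also keep marks of where in the body they formed, since Hox genes and other positional transcription factors stay active in adult tissue.

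The libraries held 19428783 to 62978348 counts in the diaphragm and 24420727 to 39235371 in the soleus. Levels are given as CPM, counts relative to the library total after scaling for library composition, or as log2 CPM, and fold changes as log2 of diaphragm over soleus with their standard error (n = 12 per muscle). A difference was called at an adjusted p under 0.05 and above 1.5-fold. The first principal component of the 24 libraries took 73.4% of their variance and separated the muscles without overlap, as their labels do. Diaphragm replicate 0 stood apart from its group with high fat and stress transcripts (Fasn at 10.62 log2 CPM against 5.02 to 7.65 in the other libraries, Atf3 at 8.63 against 2.02 to 5.40). Soleus replicate 4 had the lowest level of several fast genes and of Comp, a cartilage and tendon matrix protein, at 3.78 against 5.60 to 6.17 log2 CPM in the other soleus libraries.

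Of 11497 genes tested, 2423 (21.1%) differed between the muscles, 1438 (12.5%) higher in the diaphragm and 985 (8.57%) higher in the soleus. Above 4-fold, 192 genes were higher in the diaphragm and 117 in the soleus. For 2610 genes (22.7% of those tested) the 2 groups of 12 libraries did not overlap at all. Another 5169 genes passed the adjusted p but differed by less than 1.5-fold, and are not called here. Without diaphragm replicate 0 and soleus replicate 4, 2394 genes were called.

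As examples of contractile genes that differ, 4 promoters are given first. They belong to genes that differ in opposite directions: slow and fast troponin I (Tnni1 and Tnni2), the subunit that holds contraction off at rest, and the slow and fast 2A heavy chains (Myh7 and Myh2). Each sequence is the 250 bases before the RefSeq start of the gene in the build GRCr8, which is not the build used for the counts. Tnni1 lies at chr13:49781279-49781528 on the plus strand, Tnni2 at chr1:207024240-207024489 on the plus strand, Myh7 at chr15:32438195-32438444 on the minus strand and Myh2 at chr10:52355489-52355738 on the plus strand. Capitals mark E-boxes (CANNTG, the letters bound by the MyoD family), MCAT motifs (CATTCC, bound by TEAD factors), TATA boxes (TATAAA) and the MEF2 motif, searched on both strands.
Tnni1: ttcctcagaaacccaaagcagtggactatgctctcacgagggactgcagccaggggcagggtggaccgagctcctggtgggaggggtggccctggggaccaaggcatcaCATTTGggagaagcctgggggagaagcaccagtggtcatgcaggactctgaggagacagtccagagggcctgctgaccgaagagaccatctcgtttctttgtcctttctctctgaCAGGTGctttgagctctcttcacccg
Tnni2: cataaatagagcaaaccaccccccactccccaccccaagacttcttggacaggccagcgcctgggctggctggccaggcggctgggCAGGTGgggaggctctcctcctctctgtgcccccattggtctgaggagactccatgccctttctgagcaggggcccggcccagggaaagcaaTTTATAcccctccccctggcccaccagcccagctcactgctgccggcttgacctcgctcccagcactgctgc
Myh7: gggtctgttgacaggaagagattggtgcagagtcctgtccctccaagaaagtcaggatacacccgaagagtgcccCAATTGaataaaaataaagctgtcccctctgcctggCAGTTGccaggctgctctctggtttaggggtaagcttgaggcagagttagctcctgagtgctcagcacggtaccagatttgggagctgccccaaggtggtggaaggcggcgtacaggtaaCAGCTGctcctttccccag
Myh2: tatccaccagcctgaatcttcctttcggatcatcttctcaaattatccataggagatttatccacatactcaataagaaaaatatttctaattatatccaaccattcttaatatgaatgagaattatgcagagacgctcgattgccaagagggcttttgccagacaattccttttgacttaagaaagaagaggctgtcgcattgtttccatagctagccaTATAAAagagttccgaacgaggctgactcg
The Tnni1 window held 2 E-boxes and the Myh7 window 3, with no other motif. The Tnni2 window held 1 E-box and 1 TATA box, and the Myh2 window 1 TATA box. Of the slow contractile genes listed, 12 had a promoter in the RefSeq table, with 15 windows in all, of which 13 held an E-box. Of the fast ones 12 had a promoter, and 11 of their 14 windows held an E-box, against 65.5% of all 33469 promoters of this length. A TATA box was in 3 of the slow and 5 of the fast windows, against 12.9% of all promoters. The MEF2 motif was in 3 and 4, against 2.96%, and the MCAT motif in 1 and 4, against 12.1%. These matches describe letters in a short window and were not tested.

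The fast contractile genes were higher in the diaphragm. Of 14 tested members of a fast sarcomere list, 13 were called higher in the diaphragm and none lower, with a median log2 fold change of 5.62, against a median over all genes of 0.015. In 13 of the 14 the muscles did not overlap. In bulk samples such as these, fewer fibres or cells of a type and less RNA per cell cannot be told apart. The exception was Myom2, an M-band protein (0.17 ± 0.093, adjusted p = 0.11).

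Myh1, the 2X heavy chain, lay at 23474 to 35738 (median 30350.0) CPM in the diaphragm libraries and at 16.7 to 488 (median 65) CPM in those of the soleus, a log2 fold change of 8.78 ± 0.33 (adjusted p = 8.7e-19). Myh4, the 2B heavy chain, lay at 283 to 8555 (median 1308) CPM in the diaphragm and at 4.71 to 60.7 (median 9.23) CPM in the soleus (7.09 ± 0.68, adjusted p = 5.43e-10). The diaphragm libraries were close together in Myh1 and far apart in Myh4, while the soleus libraries were far apart in both. Mybpc2, the fast myosin-binding protein C, had the largest change of the list, with 1098 to 2052 (median 1532) CPM in the diaphragm and 0.105 to 34.8 (median 4.7) CPM in the soleus (8.89 ± 0.43). Actn3, the fast alpha-actinin of the Z-disc, was similar in size at 8.49 ± 0.40.

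The fast thin filament and light chain genes followed the same direction. Tnni2 lay at 680.4 to 952 (median 804) CPM in the diaphragm and 0.351 to 58 (median 21.7) CPM in the soleus (6.36 ± 0.55, adjusted p = 6.2e-11). Fast troponin T, Tnnt3, differed by 6.15 ± 0.53 and fast troponin C, Tnnc2, by 5.44 ± 0.39. Mylpf, the fast regulatory light chain, differed by 4.61 ± 0.24, Myoz1, a Z-disc protein of fast fibres, by 4.44 ± 0.11, and alpha-tropomyosin, Tpm1, by 4.30 ± 0.18. The smallest called differences were those of Mylk2, the kinase of the fast regulatory light chain, at 0.80 ± 0.069, and Myl1, the fast essential light chain. Myl1 lay at 2681 to 4129 (median 3111) CPM in the diaphragm and 1613 to 2541 (median 2096) CPM in the soleus (0.63 ± 0.071), so it was abundant in both muscles.

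The slow contractile genes were higher in the soleus, by less. Of 14 tested members of a slow sarcomere list, 12 were called higher in the soleus and none higher in the diaphragm, with a median log2 fold change of -1.17. The muscles did not overlap in 12 of the 14. Myh7, the type 1 heavy chain, lay at 15524 to 22600.0 (median 18747) CPM in the diaphragm and at 46685 to 58519 (median 52170.0) CPM in the soleus (-1.45 ± 0.048, adjusted p = 6.01e-20). Tnni1, whose promoter is shown above, lay at 203 to 294 (median 255) CPM against 705 to 867 (median 765) CPM (-1.60 ± 0.046, adjusted p = 3.79e-21). In both genes every diaphragm library lay below every soleus library, and the libraries of a muscle were close together.

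Slow troponin T (Tnnt1, -1.20 ± 0.049), slow cardiac-type troponin C (Tnnc1, -1.06 ± 0.063), the slow essential light chain Myl3 (-1.41 ± 0.048) and slow tropomyosin Tpm3 (-1.35 ± 0.047) all lay within a narrow range of changes. Myoz2, the calsarcin of slow fibres, was lower in the diaphragm by -1.47 ± 0.043 and Fhl1, a LIM domain protein, by -1.10 ± 0.035. Myl2, the slow regulatory light chain, was called at -0.68 ± 0.065, but its highest diaphragm library (384 CPM) lay just above its lowest soleus library (375 CPM). The members not called were Smpx (-0.53 ± 0.042), which missed the fold threshold without overlap of the groups, and Myl6b (0.16 ± 0.19), near 1 CPM in both muscles.

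**Figure D1:**
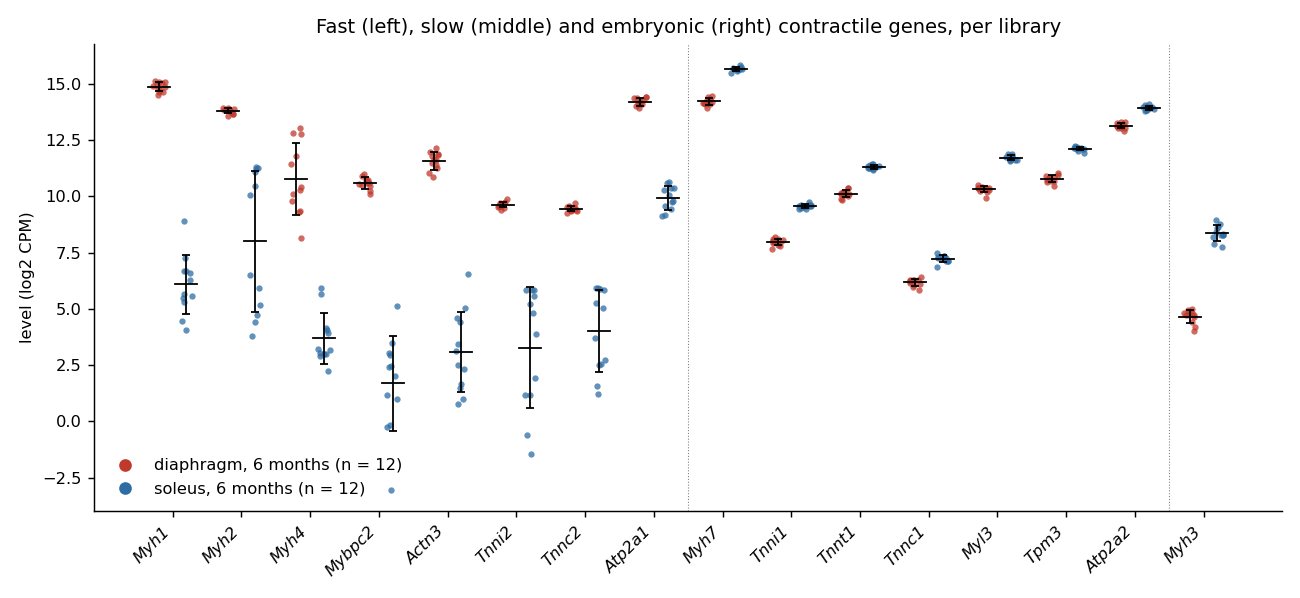
Level in log2 CPM (y axis) of 8 fast genes, 7 slow genes and embryonic Myh3 (x axis) in each diaphragm and soleus library at 6 months, with the mean and SD over 12 libraries per muscle in black. The fast genes lie higher in the diaphragm with a wide spread in the soleus, and the slow genes lie higher in the soleus with a narrow spread in both muscles.

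The share of each adult heavy chain in the counts of Myh7, Myh2, Myh1 and Myh4 gives the same picture within a library. These genes are close copies, so reads may have been divided between them with error, and the shares are of counts, not of protein or of fibres. Myh7 took 24.9% to 34.5% (median 28.4%) of these counts in the diaphragm and 95.1% to 99.9% (median 98.3%) in the soleus. Myh1 took 39.2% to 50.9% (median 45.8%) in the diaphragm and 0.0321% to 0.882% (median 0.118%) in the soleus. No diaphragm library came near a soleus library in either share. Myh2 took 18.1% to 25.1% (median 21.7%) in the diaphragm and 0.0259% to 4.82% (median 1.11%) in the soleus, and Myh4 0.395% to 11.5% (median 1.98%) and 0.00804% to 0.111% (median 0.0169%). Mean shares differed by -69 percentage points for Myh7, 45 for Myh1, 19.7 for Myh2 and 4.29 for Myh4, diaphragm minus soleus. Each of the 4 had p = 2e-05 in a two-sided permutation test with 100000 resamples, the smallest it can give, and the same value after adjustment over the 4.

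**Figure D2:**
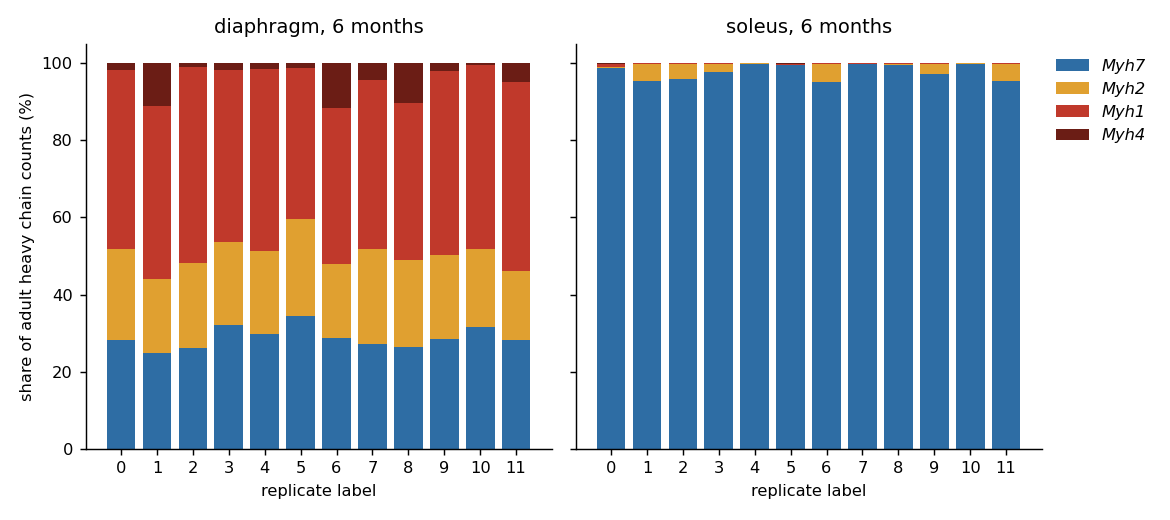
Share in percent (y axis) of Myh7, Myh2, Myh1 and Myh4 in their summed counts for each library (x axis, replicate label), diaphragm on the left and soleus on the right at 6 months. Diaphragm bars are mixed, with Myh7 at 24.9% to 34.5%, while Myh7 fills at least 95.1% of every soleus bar.

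Within the soleus, Myh2 fell into 2 ranges. In 6 soleus libraries it lay at 3.77 to 6.51 log2 CPM and in the other 6 at 10.09 to 11.30, against 13.58 to 13.94 in the diaphragm. The fitted difference between muscles had the largest standard error of the fast list (5.80 ± 0.82, adjusted p = 6.1e-07). The same 6 soleus libraries were the upper 6 for Tnni2, Tnnt3 and Tnnc2. For Myh1, Actn3, Mybpc2 and Pvalb only 2 of these 6 were among the upper 6 libraries. The soleus at 9 months also ranged widely in Myh2, from 4.48 to 12.04 log2 CPM with a median of 6.48. The samples were not grouped by this level in any test.

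Genes of calcium release and uptake differed in both directions. Of 20 tested, 6 were higher in the diaphragm and 3 in the soleus, with a median of 0.37. The share called was 45%, against 21.1% of all genes. Pvalb, a calcium buffer of fast fibres, lay at 86 to 263 (median 197) CPM in the diaphragm and 0.101 to 3.66 (median 0.439) CPM in the soleus (8.70 ± 0.77, adjusted p = 1.04e-10). Atp2a1, the fast calcium pump SERCA1, lay at 15818 to 22279 (median 18562) CPM against 554 to 1586 (median 982) CPM (4.28 ± 0.15), and Atp2a2, the slow pump SERCA2, was lower in the diaphragm at -0.81 ± 0.041. The calcium stores of the reticulum split in the same way, with fast calsequestrin Casq1 at 0.83 ± 0.057 and slow calsequestrin Casq2 at -0.67 ± 0.056.

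Phospholamban and myoregulin, small inhibitors of the pumps, were higher in the diaphragm. Phospholamban (Pln) lay at 27.3 to 41.8 (median 35.2) CPM in the diaphragm and 11.3 to 17.7 (median 13.8) CPM in the soleus (1.37 ± 0.074, adjusted p = 2.87e-15). Mrln, which codes for the inhibitor myoregulin, was higher in the diaphragm by 1.41 ± 0.084. Sarcolipin (Sln) was not called (0.51 ± 0.12). Rcan1, an inhibitor and target of the phosphatase calcineurin, was lower in the diaphragm (-1.57 ± 0.17), with diaphragm replicate 0 alone at 421 CPM inside the soleus range.

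The sarcomere genes of development and of the heart were mostly higher in the soleus. All 8 that were tested differed, 6 higher in the soleus and 2 in the diaphragm. Embryonic myosin Myh3 lay at 16.3 to 31.7 (median 26.7) CPM in the diaphragm and 215 to 493 (median 316) CPM in the soleus (-3.69 ± 0.13, adjusted p = 4.72e-19). Cardiac actin Actc1 (-2.70 ± 0.23) and cardiac troponin T, Tnnt2 (-2.42 ± 0.25), were also lower in the diaphragm without overlap of the groups. Perinatal myosin Myh8 went the other way (2.71 ± 0.36), at 17.2 to 30.2 (median 23.6) CPM in the diaphragm and 0.791 to 33.3 (median 3.2) CPM in the soleus, with overlap. Cardiac alpha-myosin Myh6 varied more than 10-fold within each muscle, at 10.7 to 152 (median 78.5) CPM in the diaphragm and 32.8 to 572 (median 258) CPM in the soleus (-1.63 ± 0.55, adjusted p = 0.0116).

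Among 32 tested transcription factors tied to fibre type, 8 were higher in the diaphragm and 5 in the soleus (40.6% called, against 21.1% of all genes). Sox6, a repressor of slow genes, lay at 45.3 to 63.6 (median 55.8) CPM in the diaphragm and 8.75 to 14.6 (median 9.87) CPM in the soleus (2.48 ± 0.075, adjusted p = 8.68e-21). Myod1, more active in fast fibres, was higher in the diaphragm (2.22 ± 0.18) and Myog, its relative that is more active in slow fibres, was higher in the soleus (-1.36 ± 0.12). Both pairs of groups were free of overlap. Prox1 (-1.19 ± 0.041) and Esrrg (-1.14 ± 0.040), which take part in slow and oxidative programmes, were higher in the soleus. Ppargc1a, the coactivator of mitochondrial growth, was higher in the diaphragm (0.96 ± 0.083), as was Tbx15, a factor of glycolytic fibres (0.93 ± 0.059). Nfatc1, the calcium-driven factor of slow fibres, was at -0.46 ± 0.055, below the fold threshold.

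The diaphragm and the soleus were also set beside the tibialis anterior and the gastrocnemius, mostly fast muscles of the hind limb, in one fit of the 4 muscles. These comparisons share libraries with each other, so the values are given side by side. Of all 11863 genes tested there, 22.5% were higher in the diaphragm than in the tibialis anterior and 20.5% higher in the diaphragm than in the gastrocnemius, while 12.7% and 17.6% were lower in the diaphragm. For the soleus, 24.3% were higher than in the tibialis anterior and 24% higher than in the gastrocnemius. Of the 14 fast genes, 13 were lower in the diaphragm than in the tibialis anterior and 13 lower than in the gastrocnemius (medians -1.72 and -1.94). Of the 14 slow genes, 12 were higher in the diaphragm than in the tibialis anterior and 7 higher than in the gastrocnemius (medians 2.30 and 0.50). Myh4 levels were 10.64 ± 1.59 log2 CPM (SD) in the diaphragm, 3.58 ± 1.13 in the soleus, 16.40 ± 0.12 in the tibialis anterior and 15.73 ± 0.21 in the gastrocnemius. Myh2 had another order, at 13.66 ± 0.11 in the diaphragm, above 12.74 ± 0.23 in the tibialis anterior and 12.80 ± 0.21 in the gastrocnemius.

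Genes of body position included several at or near 0 in one of the muscles. Hox genes are numbered along the body axis, with low numbers active near the neck and high numbers toward the tail and hind limb. Of 39 listed Hox genes 25 were in the files and 16 passed the filter on low counts, of which 4 were higher in the diaphragm, 10 higher in the soleus and 2 not called. The median log2 fold change of the 16 was -1.17, and it was the same with genes at 0 set to their bound. Hoxc10, Hoxc11 and Hoxa11, at or near 0 in the diaphragm, passed that filter through the soleus alone.

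Hoxc10 lay at 0 to 0.174 (median 0) CPM in the diaphragm and 64.2 to 77.7 (median 72.8) CPM in the soleus, 11 counts in all diaphragm libraries against 27458 in those of the soleus, or 2462-fold (95% counting interval 1376 to 4933) higher in the soleus. Hoxc11 had no count in any diaphragm library and 24.9 to 39.3 (median 31.8) CPM in the soleus, at least 4022-fold higher in the soleus against a floor of 3 counts over the diaphragm group. Hoxa11 likewise had no count in the diaphragm and was at least 338-fold higher in the soleus, at 1.72 to 3.6 (median 2.64) CPM. These genes of the hind end were thus present in every soleus library and at or near 0 in every diaphragm library. Hoxc9 (-4.75 ± 0.18), Hoxc8 (-3.82 ± 0.19), Hoxd10 (-4.12 ± 0.52) and Hoxd9 (-2.64 ± 0.22) were also higher in the soleus without overlap. Hoxc4 (-1.30 ± 0.095) and Hoxc5 (-1.04 ± 0.076) went the same way despite their low numbers. Hoxd4 (-0.76) was called in that direction too. The members not called were Hoxa6 (-0.18) and Hoxa9 (0.086). Hoxa9 averaged 2.01 log2 CPM in the diaphragm and 1.93 in the soleus.

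The 4 Hox genes called higher in the diaphragm had numbers from 2 to 5 and lay in the A and B clusters. Hoxb7, which did not pass the filter, had 191 counts in the diaphragm and 38 in the soleus. Hoxb4 lay at 13.6 to 16.7 (median 15.6) CPM in the diaphragm and 0.638 to 1.79 (median 1.08) CPM in the soleus (3.78 ± 0.13, adjusted p = 1.31e-19). Hoxa2 (2.59 ± 0.20), Hoxb3 (1.90 ± 0.17) and Hoxb5 (1.20 ± 0.21) had smaller changes, and for Hoxb5 the groups overlapped. In the other hind limb muscles Hoxc10 was at 6.21 ± 0.073 log2 CPM (tibialis anterior) and 6.28 ± 0.14 (gastrocnemius), next to 6.04 ± 0.094 in the soleus. Hoxb4 was at 0.73 ± 0.33 and -0.11 ± 0.49 there, next to 3.82 ± 0.085 in the diaphragm. Hoxd10 and Hoxd9 split the limb muscles. Their means in the tibialis anterior were -3.31 and 0.36 log2 CPM, near -3.70 and 0.10 in the diaphragm. In the gastrocnemius they were 2.54 and 4.98, above 0.55 and 2.78 in the soleus. Of the 16 Hox genes, 4 were higher and 6 lower in the diaphragm than in the tibialis anterior, and 4 higher and 11 lower than in the gastrocnemius. Over all genes 22.5% were higher and 12.7% lower in the diaphragm than in the tibialis anterior. Against the gastrocnemius 20.5% were higher and 17.6% lower. The 4 higher in each comparison were thus near the share of all genes.

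Other positional factors differed in both directions. Of 32 tested, 13 were higher in the diaphragm, 10 in the soleus and 9 were not called (71.9% called, against 21.1% of all genes). Pitx1 and Tbx4, which give the hind limb its identity, were both higher in the soleus, and both were scarce. Pitx1 had 21 counts in all diaphragm libraries and 591 in those of the soleus, or 27.8-fold (95% counting interval 18 to 45.2) higher in the soleus, and Tbx4 lay at 0 to 0.674 (median 0.186) CPM against 1.12 to 2.59 (median 1.83) CPM (-3.58 ± 0.39). In the other hind limb muscles Pitx1 was at -0.14 ± 0.53 log2 CPM in the gastrocnemius, near 0.35 ± 0.69 in the soleus, but at -2.94 ± 1.89 in the tibialis anterior, nearer to -4.34 ± 1.25 in the diaphragm. Pax9 (-3.87 ± 0.48), Osr2 (-2.35 ± 0.17) and Emx2 (-2.17 ± 0.11) had the same direction.

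On the side of the diaphragm, Pax3, a factor of muscle progenitors, lay at 4.62 to 8.57 (median 7.3) CPM against 0 to 0.144 (median 0) CPM in the soleus, a ratio of 243-fold (95% counting interval 136 to 488). Tbx3 lay at 59.2 to 86.1 (median 78.5) CPM in the diaphragm and 3.72 to 7.57 (median 4.87) CPM in the soleus (3.93 ± 0.11, adjusted p = 1.08e-21). Meis2, a partner of Hox proteins, lay at 47.5 to 60.9 (median 52.2) CPM against 2.1 to 3.9 (median 2.9) CPM (4.17 ± 0.092). The diaphragm libraries varied little in these genes and all lay above the soleus. Shox2 (2.78 ± 0.18), Msx2 (2.74 ± 0.35), Tbx1 (2.66 ± 0.063) and Gata4 (2.50 ± 0.20) were also higher in the diaphragm. Lbx1, a factor of migrating muscle progenitors of limb and diaphragm alike, was at -0.008 ± 0.095 with a 95% interval from -0.20 to 0.19.

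Sim1 and Sim2, related bHLH-PAS transcription factors, were among the 15 largest changes toward the soleus. Sim1 lay at 0 to 0.575 (median 0.0649) CPM in the diaphragm and 84.5 to 119 (median 101) CPM in the soleus (-10.29 ± 0.41, adjusted p = 2.91e-18). Sim2 lay at 2.81 to 12 (median 4.66) CPM and 156 to 187 (median 162) CPM (-5.13 ± 0.14). Among the limb muscles Sim1 was at 6.54 ± 0.12 log2 CPM in the soleus, 6.46 ± 0.14 in the tibialis anterior and 2.28 ± 0.62 in the gastrocnemius.

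**Figure D3:**
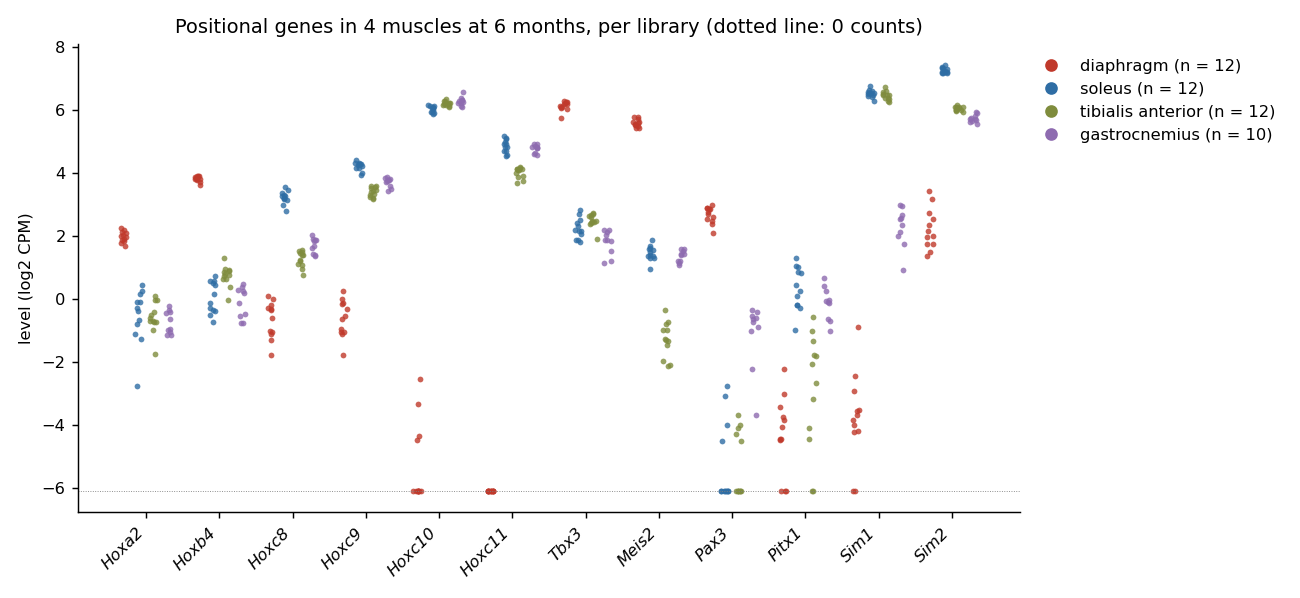
Level in log2 CPM (y axis) of 12 positional genes (x axis) in each library of 4 muscles at 6 months, 12 libraries each of diaphragm, soleus and tibialis anterior and 10 of gastrocnemius. Hoxc10 and Hoxc11 are at or near the line of 0 counts in the diaphragm and high in all 3 limb muscles, while Hoxb4, Tbx3, Meis2 and Pax3 are highest in the diaphragm.

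Glycolysis was the metabolic list with the most calls. Of 45 tested genes of glycolysis and glycogen, 26 were higher in the diaphragm and 2 in the soleus, with a median of 0.82. The share called was 62.2%, against 21.1% of all genes. Fbp2, the muscle fructose bisphosphatase, lay at 15.1 to 28.1 (median 23.1) CPM in the diaphragm and 0.25 to 2.19 (median 1.46) CPM in the soleus (4.39 ± 0.25). Gpd1, the first enzyme of the glycerol phosphate shuttle, lay at 301 to 557 (median 380.3) CPM against 36.1 to 68.1 (median 52.1) CPM (2.93 ± 0.086), and Ldha, the lactate dehydrogenase subunit of fast fibres, at 608 to 813 (median 737) CPM against 127 to 210.1 (median 161) CPM (2.16 ± 0.072). None of these overlapped between muscles. The lactate exporter Slc16a3 (2.35 ± 0.23), glycogen phosphorylase Pygm (1.66 ± 0.049), phosphofructokinase Pfkm (1.75 ± 0.041), muscle enolase Eno3 (1.55 ± 0.049), aldolase Aldoa (1.31 ± 0.052) and creatine kinase Ckm (1.29 ± 0.053) had the same direction. Gbe1, the glycogen branching enzyme, was higher in the soleus (-0.97 ± 0.037). Ldhb, the subunit of slow fibres, was at 0.21 ± 0.042 and the glucose transporter Slc2a4 at 0.20 ± 0.043, neither called.

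The mitochondrial lists held smaller changes. Of 75 respiratory chain subunits tested, 6 were higher in the diaphragm and 1 in the soleus, 9.33% called against 21.1% of all genes. Their median was 0.31, with 68 of the 75 positive, and in 39 of the 75 the groups did not overlap, against 22.7% of all genes. Most thus lay slightly toward the diaphragm and below the fold threshold. Ndufs8, a complex I subunit, had the largest change toward the diaphragm (0.86 ± 0.052), and Cox6a2, the muscle subunit of complex IV, was higher in the soleus (-0.87 ± 0.049). Of 22 genes of the citric acid cycle 6 were higher in the diaphragm and 1 in the soleus (31.8% called), led by Idh3a, a subunit of isocitrate dehydrogenase (1.19 ± 0.033). The gene higher in the soleus was Pdk1, a kinase that restrains pyruvate dehydrogenase (-1.13 ± 0.049). Citrate synthase (Cs) was at 0.44 ± 0.028, below the fold threshold.

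For fatty acid uptake and oxidation, 8 of 36 genes were higher in the diaphragm and 1 in the soleus, with a median of 0.25. The share called, 25%, was near that of all genes. The uncoupling proteins Ucp3 (1.80 ± 0.25) and Ucp2 (1.67 ± 0.11), the lipid droplet protein Plin5 (1.36 ± 0.099) and medium-chain acyl-CoA dehydrogenase Acadm (1.12 ± 0.051) led the list. Acadm lay at 484 to 691 (median 545) CPM in the diaphragm and 224 to 289.9 (median 258) CPM in the soleus. Cpt1b, which admits fatty acids to the mitochondrion, was higher in the soleus (-0.60 ± 0.032), and the fatty acid carriers Cd36 (-0.005 ± 0.10) and Fabp3 (-0.015 ± 0.062) were not called.

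Transcripts of proteins that sense stretch and protect the sarcomere lay mostly toward the soleus. Of 28 tested genes, 14 were higher in the soleus and none in the diaphragm, with a median of -0.62. The other 14 were not called (50% called, against 21.1% of all genes), and 3 of the 28 changes were positive. Ankrd2, a stretch-induced ankyrin repeat protein, lay at 3.49 to 12.6 (median 8.34) CPM in the diaphragm and 361 to 627 (median 485) CPM in the soleus (-6.02 ± 0.19, adjusted p = 2.41e-20). Csrp3, muscle LIM protein, lay at 5.25 to 142 (median 11.6) CPM against 186 to 298 (median 231) CPM (-3.86 ± 0.34). The soleus libraries were close together in both, and the highest diaphragm library in Csrp3 was still below the lowest of the soleus. Among the small heat shock proteins, Hspb6 (-1.83 ± 0.054), Hspb7 (-1.68 ± 0.094) and Cryab (-1.28 ± 0.054) were higher in the soleus, as was the LIM protein Fhl2 (-2.43 ± 0.13). Ankrd1, a relative of Ankrd2, was not called (-0.77 ± 0.47) and ranged in the diaphragm from 3.91 to 217 CPM, the latter in replicate 0. Without that library the list had 16 genes higher in the soleus.

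At the neuromuscular junction, 3 of 23 tested genes were higher in the diaphragm and 7 in the soleus. The share called was 43.5%, against 21.1% of all genes. Of all genes 12.5% were higher in the diaphragm and 8.57% in the soleus. Acetylcholinesterase, Ache, which clears the transmitter, lay at 29.5 to 43.4 (median 39.3) CPM in the diaphragm and 9.11 to 18.5 (median 11.3) CPM in the soleus (1.73 ± 0.087). Its collagen tail Colq had the opposite direction, at 21.4 to 44 (median 28.8) CPM and 79.3 to 135 (median 112) CPM (-1.80 ± 0.11). The receptor kinase Musk was higher in the diaphragm (1.26 ± 0.095). The acetylcholine receptor subunits Chrna1 (-1.43 ± 0.11), Chrnd (-1.18 ± 0.069) and fetal Chrng (-2.33 ± 0.32) were higher in the soleus, while adult Chrne was not called (0.26 ± 0.10). Chrng was scarce, with 4.21 CPM in the highest soleus library.

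**Figure D4:**
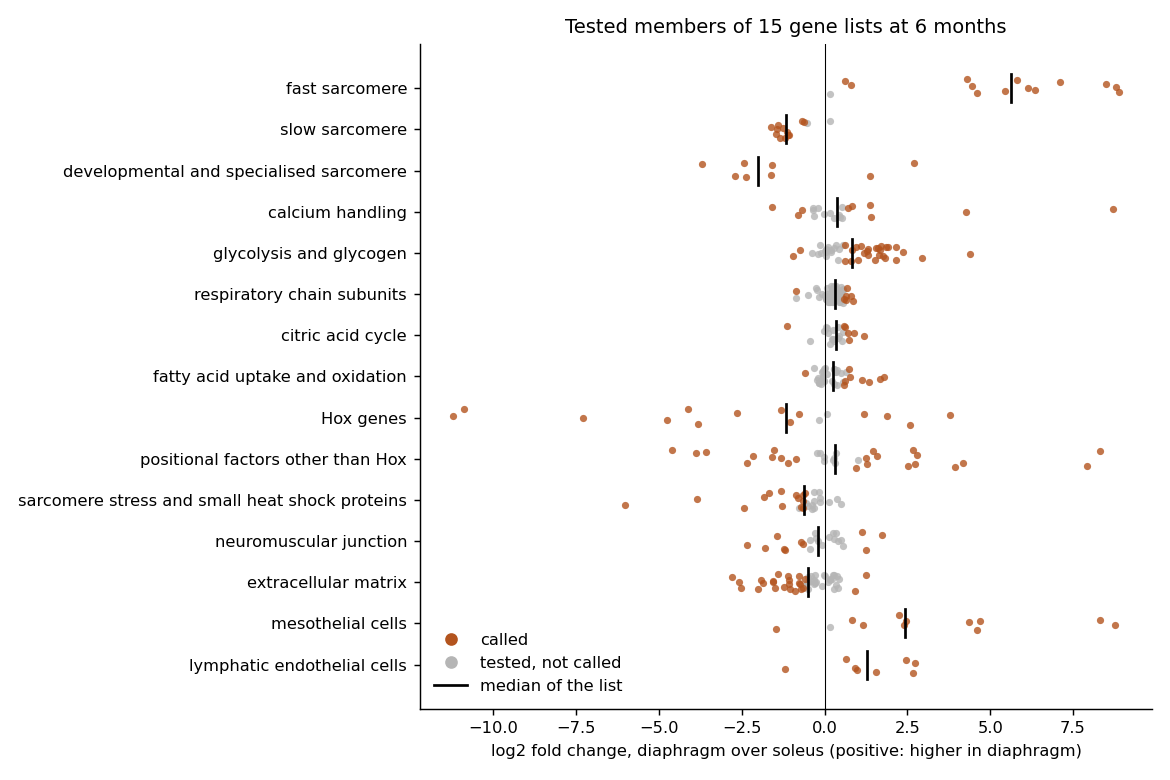
Log2 fold change of diaphragm over soleus (x axis) for each tested member of 15 gene lists (y axis), in colour where called and grey where not, with the median of the list as a black line. The fast list lies far to the right (median 5.62) and the slow list to the left (median -1.17), the Hox genes reach furthest to the left, and the respiratory chain lies in a narrow band around 0.31.

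Outside the lists, the rule of the largest changes named further genes. Toward the diaphragm these were Gja3, a gap junction protein (5.42 ± 0.42), Cd24, a surface glycoprotein (4.86 ± 0.33), Mss51 (4.70 ± 0.33) and Mylk3, the cardiac myosin light chain kinase (4.68 ± 0.18). Mylk3 lay at 15.2 to 21.4 (median 16.8) CPM in the diaphragm and 0.35 to 1.54 (median 0.675) CPM in the soleus, and its mean was -2.38 log2 CPM in the tibialis anterior and -1.20 in the gastrocnemius. Among the abundant genes, H19, an imprinted noncoding RNA, was higher in the diaphragm at 3543 to 5959.9 (median 4663) CPM against 855 to 1574 (median 1029.8) CPM (2.13 ± 0.087). Klhl31 (0.70 ± 0.042) and the mitochondrial ADP/ATP carrier Slc25a4 (0.62 ± 0.038) had smaller changes.

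Toward the soleus the rule named Mettl21c, a lysine methyltransferase of muscle, at 0.951 to 4.95 (median 2.04) CPM in the diaphragm and 157 to 329 (median 249.5) CPM in the soleus (-7.07 ± 0.29, adjusted p = 6.19e-18). The anion exchanger Slc4a3 had the smallest spread of the large changes, at 7.09 to 10.3 (median 8.17) CPM against 193 to 252 (median 221) CPM (-4.72 ± 0.082, adjusted p = 1.07e-25). Neither gene came near overlap between the muscles. The pacemaker channel Hcn4 (-4.36 ± 0.34), the taste G protein subunit Gnat3 (-5.82 ± 0.35), the adhesion protein Tenm2 (-4.24 ± 0.14), the zinc finger gene Zfp474 (-6.09 ± 0.42), the urea transporter Slc14a2 (-4.31 ± 0.30) and Crb1 (-4.14 ± 0.22) were also higher in the soleus. Of the abundant genes, alpha-actinin Actn2 (-1.15 ± 0.035), Nrap (-0.87 ± 0.046), myotilin Myot (-0.66 ± 0.035) and Ldb3 (-0.65 ± 0.038), all proteins of the sarcomere or its anchors, were higher in the soleus. Nrap, Myot and Ldb3 are not further genes, since they are already counted in the list of stretch and sarcomere protection above. Myot was one of the symbols on more than 1 row. The rule also named Rn18s, the 18S ribosomal RNA that the kit was meant to remove, with 9690 to 19956 counts in the soleus libraries. It was listed at 0 in 10 of the 12 diaphragm libraries and in every tibialis anterior and gastrocnemius library. The ribosomal precursor Rn45s had 46114 to 147195 counts in the diaphragm and 42550 to 87371 in the soleus, so the zeros of Rn18s are not read as a level, and their source was not tested. Rn28s, the 28S RNA, was at 0 in every diaphragm and tibialis anterior library of 6 months and in 8 of 12 of the soleus. In the gastrocnemius it had 5849 to 3690990 counts. Whether the gastrocnemius libraries were handled otherwise was not tested.

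The extracellular matrix was lower in the diaphragm for many genes. Of 50 tested, 22 were higher in the soleus and 2 in the diaphragm, with a median of -0.51. The share called was 48%, against 21.1% of all genes. In only 8 of the 50 did the muscles not overlap, while 22.7% of all genes were free of overlap. Postn, a matrix protein of growing and loaded tissue, lay at 11.8 to 41.1 (median 28.4) CPM in the diaphragm and 81.3 to 257 (median 163) CPM in the soleus (-2.53 ± 0.23). Fibronectin, Fn1, lay at 219 to 368 (median 286) CPM against 599.7 to 1310.2 (median 1076) CPM (-1.86 ± 0.10), and Col1a1, a chain of type I collagen, at 295 to 837 (median 522) CPM against 676 to 2336 (median 1479.9) CPM (-1.55 ± 0.17). Postn and Fn1 did not overlap between the muscles and Col1a1 did. Col3a1, the chain of type III collagen, was at 0.35 ± 0.10 and not called.

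Tendon transcripts had the same direction as the matrix, but the lists share genes. Comp, Cilp2 and Thbs4 are also among the matrix genes counted above. Of 14 tested markers of fibroblasts and tendon cells, 7 were higher in the soleus and 1 in the diaphragm (57.1% called, against 21.1% of all genes). Comp (-2.78 ± 0.33), Cilp2 (-2.58 ± 0.43), tenomodulin Tnmd (-1.87 ± 0.37) and Thbs4 (-1.48 ± 0.20) led them, all with overlap of the groups, and Dpp4, a marker of fibroblast progenitors, was higher in the diaphragm (1.70 ± 0.16). Sums over marker lists are given in CPM of the total counts, without the scaling for composition. The summed markers were at 2142 to 3175 (median 2698) CPM in the diaphragm and 2146 to 4292 (median 3533) in the soleus. The part of tendon in the matrix result was not tested.

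Markers of the cells that cover the diaphragm were higher there. The mesothelium is the sheet that lines the body cavities, and both faces of the diaphragm carry it. Of 21 listed mesothelial markers 17 were in the files and 12 passed the filter on low counts. Of these 12, 10 were higher in the diaphragm and 1 in the soleus, with a median of 2.42. Bnc1 and Wt1, at or near 0 in the soleus, passed that filter through the diaphragm alone. The count and the median thus depend in part on the filter. Bnc1 had no count in any soleus library and 1.32 to 21.3 (median 9.34) CPM in the diaphragm, at least 1277-fold higher against a floor of 3 counts over the soleus group. Mesothelin, Msln, lay at 5.89 to 71.9 (median 38) CPM in the diaphragm and 0.35 to 1.79 (median 1.05) CPM in the soleus (4.70 ± 1.08, adjusted p = 0.000421). Wt1, which is both a mesothelial marker and a positional factor, lay at 5.14 to 15.7 (median 9.45) CPM and 0 to 0.18 (median 0) CPM, a ratio of 295-fold (95% counting interval 169 to 572). Bnc1 and Msln varied widely among the diaphragm libraries, Wt1 less so, and none overlapped with the soleus. The summed markers were at 183 to 691 (median 425) CPM in the diaphragm and 240.4 to 395 (median 318) in the soleus, with overlap. The exception was Prg4, lubricin, which was higher in the soleus (-1.45 ± 0.082).

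Lymphatic transcripts were also higher in the diaphragm, whose lymphatics drain the peritoneal cavity. Of 8 tested markers 7 were higher in the diaphragm and 1, Prox1, in the soleus. The chemokine Ccl21 lay at 73.4 to 184 (median 111) CPM in the diaphragm and 10.9 to 24.7 (median 17.9) CPM in the soleus (2.73 ± 0.15, adjusted p = 4.21e-15). Reln (2.47 ± 0.14), the receptor Flt4 (1.56 ± 0.11) and Lyve1 (0.91 ± 0.12) did not overlap either. Prox1 is a slow fibre gene as well as a lymphatic one, and Tbx1 is a marker of this list as well as a positional factor. Summed over the list, the level was 406 to 701 (median 516) CPM in the diaphragm and 243 to 292 (median 269.8) in the soleus. Of 15 blood vessel markers 6 were higher in the diaphragm and none in the soleus, with a median of 0.50. The share called was 40%, against 21.1% of all genes.

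Red cell transcripts were mostly higher in the diaphragm. All 7 tested red cell genes differed, 6 higher in the diaphragm. Alpha-globin Hba1 lay at 239 to 418 (median 319.6) CPM in the diaphragm and 85.1 to 159 (median 138) CPM in the soleus (1.30 ± 0.11), and beta-globin Hbb differed by 1.39 ± 0.13. The globin genes are close copies, so counts between them are uncertain. The part of blood left in the vessels was not tested. Of 10 neutrophil and mast cell genes 9 were higher in the diaphragm, among them the mast cell protease Cma1 (1.11 ± 0.20) and carboxypeptidase Cpa3 (1.19 ± 0.17). The share called was 90%, against 21.1% of all genes. In only 1 of the 10 did the muscles not overlap, while 22.7% of all genes were free of overlap. Of 6 T cell genes 4 were higher in the diaphragm and 1 in the soleus, while their summed level was 16.4 to 26.7 (median 20) CPM in the diaphragm and 14 to 26.1 (median 21.4) in the soleus, with overlap. Of 13 genes of MHC class II presentation 4 (30.8%, against 21.1% of all genes) were higher in the diaphragm. Macrophage genes went slightly toward the soleus, with 10 of 14 negative and a median of -0.24. The 1 of these 14 that was called (7.14%, against 21.1% of all genes) was Lyve1, which also stands in the lymphatic list.

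**Figure D5:**
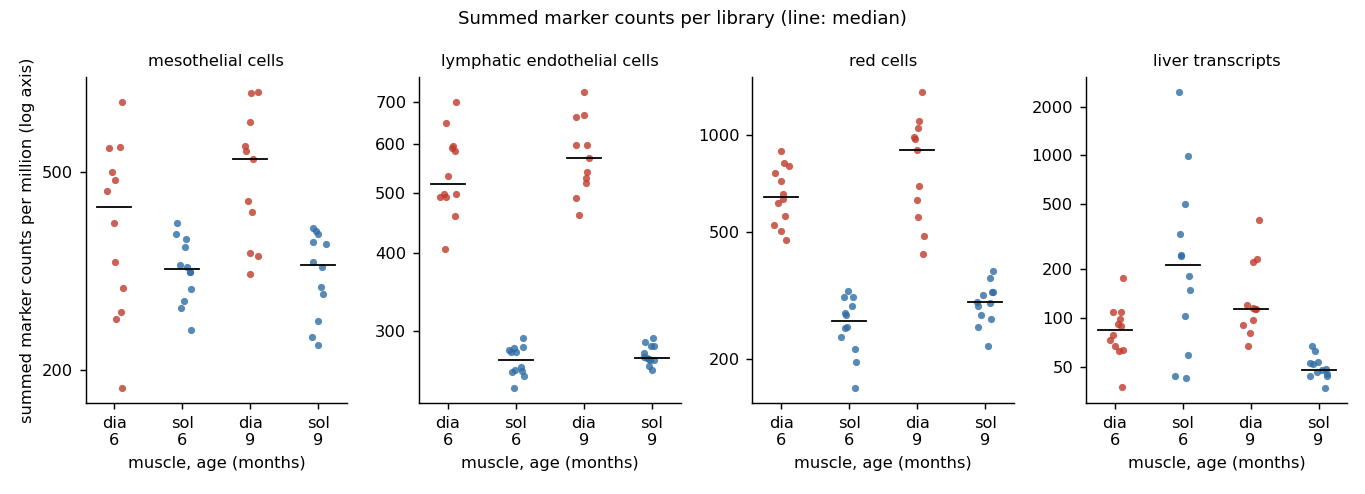
Summed CPM, without scaling for composition (y axis, log scale) of 4 marker lists in each diaphragm (dia) and soleus (sol) library at 6 and 9 months, with the median as a line. Lymphatic and red cell sums lie higher in the diaphragm at both ages without overlap, mesothelial sums overlap, and liver sums reach far above the rest in part of the soleus libraries of 6 months.

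Liver transcripts were high in part of the soleus libraries of this age. Of 8 tested, 4 were called higher in the soleus, with Alb, serum albumin, at 1.35 to 54.2 (median 4.6) CPM in the diaphragm and 4.17 to 1335 (median 87.8) CPM in the soleus (-3.48 ± 1.35, adjusted p = 0.0259). Serpina1, which the rule of the largest changes named, lay at 0.0867 to 1.03 (median 0.57) CPM against 1.55 to 194 (median 13.1) CPM (-4.45 ± 1.69, adjusted p = 0.0225). The summed list ran at 42.6 to 2462 (median 211) CPM in the soleus and 37.3 to 175 (median 83.7) in the diaphragm at 6 months. At 9 months it ran at 36.6 to 66.9 (median 47.8) in the soleus and 66.7 to 402 (median 113) in the diaphragm. Diaphragm replicate 0 of 6 months held Alb at 5.76 log2 CPM, against at most 3.59 in the other diaphragm libraries of that age. At 9 months Alb had the opposite direction (6.13 ± 2.34). With the mean of these genes as a covariate, 2352 genes were called in place of 2423, and 15 in place of 22 matrix genes were higher in the soleus. Whether these transcripts came from another organ at collection or later was not tested.

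Counts for the fat, early response and clock lists moved with single libraries or with the test. Of 18 adipocyte genes 4 were higher in the diaphragm and 1, Car3, in the soleus, and without diaphragm replicate 0 the counts were 2 and 2, and without soleus replicate 4 as well 2 and 4. With edgeR they were 8 and 1, and with the replicate label as a block 9 and 1. Car3 codes for the carbonic anhydrase of slow fibres as well as of fat, and lay at 305 to 507 (median 381) CPM in the diaphragm and 2669.5 to 3656 (median 3109) CPM in the soleus (-3.00 ± 0.084). Adiponectin, Adipoq, was not called (0.095 ± 0.33). Of 20 immediate early and stress genes 3 were higher in the diaphragm and 5 in the soleus, and without diaphragm replicate 0 these were 2 and 9. With edgeR they were 3 and 2, and with the liver covariate 2 and 1. Of 15 clock genes 1 was higher in the diaphragm and 4 in the soleus, and without soleus replicate 4 these were 1 and 2. At 9 months 1 of the 5 was called again in the same direction. In the main fit 27.8% of the adipocyte, 40% of the early response and 33.3% of the clock genes were called, against 21.1% of all genes.

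The remaining lists held calls in both directions. Of 13 satellite cell genes, Cdh15 (1.21 ± 0.067) and Itga7 (1.02 ± 0.055) were higher in the diaphragm and 3, led by Chodl (-1.58 ± 0.12), in the soleus, while Pax7, the marker of satellite cells, was not called (-0.13 ± 0.072). Without diaphragm replicate 0 the satellite cell counts were 4 and 3. Of 12 Schwann cell genes 5 were higher in the diaphragm and 1 in the soleus, and of 15 genes of smooth muscle and pericytes 1 and 2. The share called was 38.5% for satellite cells and 50% for Schwann cells, against 21.1% of all genes. For smooth muscle and pericytes it was 20%, near that of all genes, and for the growth list below 34.6%. Of 26 genes of growth, atrophy and myokines 8 were higher in the diaphragm, among them myostatin, Mstn (1.11 ± 0.25), and Igfbp5 (1.17 ± 0.059), and 1 in the soleus. The 1 tested gene of B and plasma cells was not called. Of 5 tested lung and heart genes 1 was higher in the diaphragm and 2 in the soleus (60% called, against 21.1% of all genes). The lung surfactant genes did not pass the filter on low counts.

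The same comparison was made in the rats of 9 months, none of which is shared with the 6-month groups. Of 11566 genes tested there, 2383 (20.6%) were called. The 2 ages shared 1978 calls of the same direction, 81.6% of the calls at 6 months and 83.0% of those at 9 months, and 1 gene, Alb, was called in opposite directions. At 9 months 12 of the 13 called fast genes and all 12 called slow genes were called again in the same direction, as were 13 of 14 Hox genes, 23 of 23 positional factors, 27 of 28 glycolytic genes and 22 of 24 matrix genes. Of the 7 respiratory chain subunits 3 were. Log2 fold changes at 9 months were 9.42 ± 0.48 for Myh1, -1.36 ± 0.046 for Myh7, 3.72 ± 0.13 for Hoxb4, 3.68 ± 0.080 for Tbx3 and -4.57 ± 0.085 for Slc4a3. For Rn18s the 9-month difference was not called, and 6 of 11 diaphragm libraries and 1 of 12 soleus libraries were then at 0.

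The change of the muscle difference from 6 to 9 months was tested directly. No gene of 11951 (0%) passed by limma at the thresholds used, and 1240 had an unadjusted p under 0.05. That is a larger share than the 0.05 that would fall there if no gene changed. With edgeR 87 genes passed, and 6 did by limma with scaling by total counts. Age and the day of collection cannot be told apart in this test, since each age was collected on its own day.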

How the data were processed

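RNA from whole muscle was sequenced as strand-specific, ribosome-depleted total RNA libraries in read pairs. The authors deposited raw counts per gene for each library, made with the ArrayStudio pipeline on the rat genome reference B6.0 with an in-house gene model based on RefSeq. The version of ArrayStudio, its treatment of reads with several matches and its use of strand are not given in the sources used here. Each file held 17870 rows for 17315 symbols, and rows of 1 symbol were summed (494 symbols on more than 1 row, 2.38% of the counts of the 24 libraries). Of the 325 libraries, 69 were used.

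Groups were read from the titles. No 2 libraries agreed within sampling noise. Genes were kept with filterByExpr by group (minimum count 10, minimum total 15), which passed 11497 genes, and scaled by TMM in edgeR 4.0.16. A gene at or near 0 in 1 muscle can pass this filter through the other muscle alone. limma-voom (limma 3.58.1, R 4.3.3) compared the muscles, two-sided, with Benjamini-Hochberg adjustment, calling genes at an adjusted p under 0.05 and above 1.5-fold. The study's methods name limma, the 1.5-fold threshold and a Bonferroni adjustment, which was tried as well. Log2 CPM levels were computed with a prior count of 0.5. Depth sets the counting error, which is the only error that the 95% exact intervals and the floor of 3 counts cover. Myosin shares were compared by a permutation test in SciPy 1.17.1 (Python 3.11.15). The fit was tested on simulated data with 200 changed genes.

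Members, lists, rules and tests were chosen with earlier results of these data known. Named genes were the 15 largest changes of each direction among called genes with a mean log2 CPM over 0, the 10 most abundant called genes of each direction, and listed genes, up to 4 called members per direction or any member of a muscle, position or cell type list whose role is described. A few genes that the rule names are not reported here. Of 33 lists, counts and medians are given with no set test. Promoter sequences are from RefSeq (GRCr8), and genes without an entry were not searched. Alternatives covered scaling, test, filter, threshold, weights, replicate block, rows and libraries.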

Additional observations from a re-analysis of the deposited data

How the results depend on the processing

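The number of genes called stayed within 1.5 times of 2423 under every alternative but one, from 1713 with Bonferroni adjustment to 3189 without a filter on low counts. With a 2-fold threshold it was 1117, of which 686 were higher in the diaphragm and 431 in the soleus, since a stricter threshold takes fewer genes. DESeq2 1.42.0 called 2403 and edgeR 2406. For the change of the muscle difference between the ages, scaling by total counts gave 6 genes and edgeR 87, where limma gave 0. The cause was not tested. The alternatives chosen after the data had been seen left out diaphragm replicate 0 or soleus replicate 4 (2424 and 2428 genes called, 1405 to 1417 higher in the diaphragm and 1011 to 1019 in the soleus), both (2394), or took the mean of the liver genes as a covariate (2352). With that covariate, which is built from them, the liver genes Alb (0.61), Fgg (3.22), Hp (0.26) and Tf (1.31) turned toward the diaphragm.

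Of 643 genes followed, 301 were called, and 175 of these were called under all alternatives that tested them, the 2-fold threshold and Bonferroni included. The replicate labels were not taken to pair the muscles, since no label says what they share and 3 of the 12 pairs fell short of the correlation of 0.1 that was required. All 12 correlations were positive. Same-numbered libraries had correlations of 0.065 to 0.31 in their deviations from the group means, over 0.1 in 9 of 12 pairs, and 7 diaphragm and 8 soleus libraries were best matched by their own number. The median was 0.20, against -0.027 for other numbers. The standard errors and p-values of the main fit take no account of any such pairing. A fit with the replicate block called 2409 genes, and the adipocyte list then had 9 in place of 4 genes higher in the diaphragm. A further 5169 genes passed the adjusted p under the fold threshold, so that threshold bounded the number of calls. Genes near or under 1 CPM, such as Pitx1, Tbx4 and Chrng, rest on few counts.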
